A study of Mus musculus with 3 samples.

Results

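Gamma delta T cells of the mouse femoral artery were described in 3 single-cell RNA libraries, as 122 of 30135 cells. They were chosen by their counts of unique molecular identifiers (UMIs, each standing for 1 captured RNA molecule). A cell needed at least 300 genes and at most 15% of its UMIs from mitochondrial genes. A gamma delta T cell then had UMIs of at least 2 of the 3 CD3 genes Cd3e, Cd3d and Cd3g, at least 1 UMI of Trdc, and none of Cd4, Cd8b1, Cd79a or Csf1r. Trdc encodes the constant part of the delta receptor chain, and the CD3 genes encode the signalling subunits that carry every T cell receptor. The last 4 genes mark helper T cells, cytotoxic T cells, B cells and macrophages.

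The study asked how cells of the femoral artery respond to injury with a wire, and its title names mesenchymal IL-33 and reparative macrophages. All mice were male, wild type and 8 weeks old. The groups were a sham operation (Sham, no harvest time given in the labels), 2 days after the injury (D2) and 7 days after it (D7). Live single cells of 6 mice were pooled into 1 library per group, with no record of which cell came from which mouse. Each group is therefore 1 sample, no test between groups was possible, and no p-value is given. Intervals are 95% intervals that cover counting error only, not the spread between mice.

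Gamma delta T cells are lymphocytes whose receptor joins a gamma and a delta chain, and they settle in barrier and connective tissues. Those programmed for type 17 responses use the IL-23 receptor and the scavenger receptors Scart1 and Scart2, and release IL-17. Those programmed for type 1 responses use T-bet and Eomes, carry receptors shared with natural killer cells, and release interferon gamma and granzymes. Many type 17 cells leave the fetal thymus with 1 particular pair of variable segments and persist in tissue.

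The variable segments are shown first, since they separate the cells below. Each line gives the last 60 bases of the segment's transcript in the GENCODE vM21 annotation of GRCm38 (mm10), 5′ to 3′. Capitals mark the conserved tyrosine, tyrosine and cysteine codons that lead into the joined, antigen-contacting loop. Trdv4 lies at chr14:54074905-54075515 on the plus strand and is the delta segment of the fetal type 17 cells. Tcrg-V6 lies at chr13:19190356-19190929 on the plus strand and is its usual gamma partner. Tcrg-V4 lies at chr13:19184974-19185506 on the plus strand and serves another type 17 lineage. Trgv2 at chr13:19336573-19337167 on the minus strand and Tcrg-V1 at chr13:19339989-19340454 on the plus strand are the pair whose reads are hard to tell apart.
Trdv4: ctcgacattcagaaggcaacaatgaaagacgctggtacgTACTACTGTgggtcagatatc
Tcrg-V6: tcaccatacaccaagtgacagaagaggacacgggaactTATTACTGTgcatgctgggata
Tcrg-V4: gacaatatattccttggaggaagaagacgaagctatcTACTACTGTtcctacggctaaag
Trgv2: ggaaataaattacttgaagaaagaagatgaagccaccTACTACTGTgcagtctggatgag
Tcrg-V1: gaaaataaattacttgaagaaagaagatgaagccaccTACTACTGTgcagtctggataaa
The transcripts of Trgv2 and Tcrg-V1 were identical at 94.7% of their aligned bases and at 57 of these last 60. Their counts are uncertain, and so is the split between the gamma constant genes Tcrg-C1 and Tcrg-C2, which were identical at 93.5% of aligned bases over the last 600 bases.

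After the cell filter the Sham, D2 and D7 libraries held 7451, 11473 and 11211 cells of 7757, 11690 and 11574 deposited barcodes. Their total counts were 39756684, 98260210 and 100571340 UMIs. The median gamma delta T cell held 7037.5 UMIs in Sham, 7549 in D2 and 5715.5 in D7, so those of D7 were the shallowest. The members' UMIs summed to 191308, 250021 and 452686. Pairs of libraries shared between 21 and 29 barcodes, and 0 barcodes were members in both libraries of a pair.

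The label was checked on genes the selection did not use. A gamma constant gene was detected in 112 of the 122 cells, in 18 of 22, 28 of 30 and 66 of 70. In CD4 T cells, called by the same counts with Cd4 in place of Trdc, it was detected in 3 of 69, 0 of 69 and 2 of 132, and their median depths were 6099, 5546 and 4646 UMIs. Most members therefore carried RNA of the partner chain of the delta receptor, and CD4 T cells nearly lacked it.

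Trdc itself is a description, since it chose the cells. The median was 7 UMIs per cell and the highest 41. Just inside the threshold were 11 cells with 1 UMI and 8 with 2, against 103 with 3 or more. Of the members 103 had all 3 CD3 genes and 19 had 2 of them. Just outside lay 12 cells with Trdc and 1 CD3 gene, and 24 cells with Trdc and CD3 that were left out for a UMI of Cd4, Cd8b1, Cd79a or Csf1r. Another 28 of 388 T cells with CD3 genes and none of Trdc, Cd4, Cd8b1, Cd79a or Csf1r carried at least 2 of the type 17 genes used below.

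Cells that should lack Trdc carried little of it. B cells carried it in 0 of 279, 2 of 364 and 2 of 655 cells at median depths of 4288, 4853.5 and 3723 UMIs, and CD4 T cells in 0 of 69, 0 of 69 and 2 of 132. CD8 T cells, called with Cd8b1 in place of Cd4, carried Trdc in 0 of 78, 2 of 74 and 7 of 180 cells, the last with 67 UMIs, and a gamma constant gene in 3, 1 and 12. Natural killer cells carried Trdc more often, in 15 of 118, 12 of 44 and 20 of 131 cells, or 12.7%, 27.3% and 15.3%. These natural killer cells held 23, 15 and 24 Trdc UMIs in all. They had Tcrg-C1 at 0, 3.0 and 1.3 CPM (UMIs of the gene scaled to a total of 1000000 in the cells summed), against 423, 288 and 574 CPM in the gamma delta T cells. Of the classes defined below, 77 of 90 type 17 members had Tcrg-C1, but only 9 of 24 type 1 members. The type 1 members had it at 257, 32.8 and 98.5 CPM by library. The 3 D2 members with 1 Trdc UMI were all type 1, with gamma constant UMIs of 1, 0 and 0. Whether some type 1 members are natural killer cells was not tested.

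Alpha beta receptor genes were also read in the members. Trac, the alpha constant gene, was found in 2 of 22, 7 of 30 and 22 of 70 gamma delta T cells, at 10.5, 36.0 and 92.8 CPM. CD4 T cells stood at 330, 413 and 350 CPM. Members at D7 carried 8.87 times the Trac of Sham (2.31 to 75.7). A beta constant gene was read in 112 of the 122 cells. Whether some of these are alpha beta T cells or cell pairs was not tested, so the shares are also given without every cell that had Trac.

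Gamma delta T cells made up 0.295% of the Sham cells (22 of 7451; Clopper-Pearson interval 0.185 to 0.447), 0.261% of the D2 cells (30 of 11473; 0.176 to 0.373) and 0.624% of the D7 cells (70 of 11211; 0.487 to 0.788). The D7 share was 2.11 times that of Sham (1.29 to 3.59) and 2.39 times that of D2 (1.54 to 3.79), while D2 and Sham stood at a ratio of 0.886 (0.494 to 1.61). Without the cells that had Trac the shares were 0.268% (0.164 to 0.414), 0.200% (0.127 to 0.301) and 0.428% (0.316 to 0.567). Thinning each cell to 2000 UMIs before the selection dropped the cells with fewer UMIs. It left 5037, 10931 and 10390 cells, so Sham lost the most. The shares were then 0.338% (0.197 to 0.540), 0.192% (0.119 to 0.294) and 0.443% (0.324 to 0.590). D7 remained the highest in both settings, but its interval then overlapped that of Sham. The part of the dropped cells in the thinned shares was not tested.

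Among T cells the picture was flat. Of the cells with at least 2 CD3 genes, 8.27% were gamma delta T cells in Sham (22 of 266; 5.26 to 12.3), 10.3% in D2 (30 of 290; 7.09 to 14.4) and 9.64% in D7 (70 of 726; 7.59 to 12.02). The ratios were 1.25 for D2 over Sham (0.698 to 2.28), 1.17 for D7 over Sham (0.713 to 1.98) and 0.932 for D7 over D2 (0.60 to 1.48), and each interval holds 1. The share of all cells also moves with the other cells sorted: the D2 library held 4254 cells gated as neutrophils, against 153 in Sham and 1434 in D7. The part of this in the shares was not tested.

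**Figure D1:**
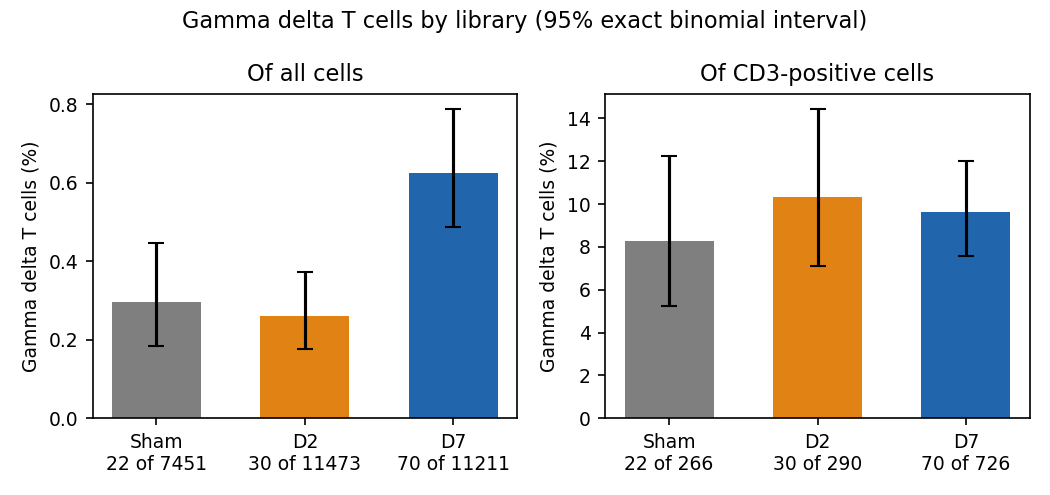
Share of gamma delta T cells (%) in the Sham, D2 and D7 libraries, of all kept cells on the left and of CD3-positive cells on the right, with the exact 95% binomial interval as bars. The D7 point (0.624%) lies above Sham (0.295%) and D2 (0.261%) on the left, and the 3 points lie between 8.27% and 10.3% on the right.

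Most of the cells carried the type 17 program. A cell was called type 17 or type 1 when it had UMIs of at least 2 of the 10 genes of a gate. The type 17 gate included Il23r, which encodes a subunit of the IL-23 receptor, Il17a, Il17f, Cd163l1 (Scart1), 5830411N06Rik (Scart2), the kinase Blk, the chemokine receptor Ccr6, the transcription factor Sox13 and the IL-1 receptor Il1r1. The type 1 gate was Tbx21 (T-bet), Eomes, Ifng, the costimulatory receptor Cd27, the killer cell lectin-like receptors Klrd1, Klrc1 and Klre1, the chemokine Xcl1 and the granzymes Gzma and Gzmb. In all, 90 of 122 cells were type 17, 24 were type 1, 3 were both and 5 were neither.

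Type 17 cells were 18 of 22 in Sham (81.8%; 59.7 to 94.8), 21 of 30 in D2 (70%; 50.6 to 85.3) and 51 of 70 in D7 (72.9%; 60.9 to 82.8). Type 1 cells were 4 of 22 (18.2%), 8 of 30 (26.7%) and 12 of 70 (17.1%). The intervals of the 3 libraries overlap for both classes. Few cells lay near the threshold of the type 17 gate: 26 cells had 0 of its genes, 3 had 1, 4 had 2, 11 had 3 and 78 had 4 or more. The type 1 gate was less sharp, with 73 cells at 0 genes, 22 at 1, 6 at 2, 7 at 3 and 14 at 4 or more.

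**Figure D2:**
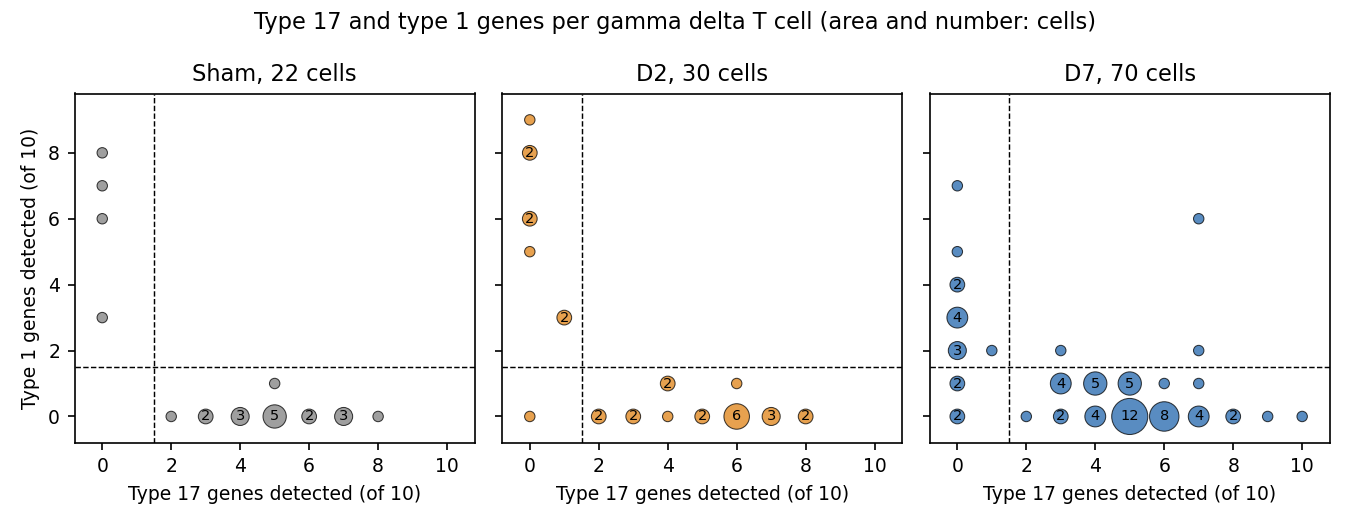
Number of type 17 genes (x axis, of 10) against number of type 1 genes (y axis, of 10) detected per gamma delta T cell in the Sham, D2 and D7 libraries; the area and number of a point give its cells and the dashed lines the threshold of 2 genes. Most cells lie along 1 axis or the other, and 3 cells, all at D7, pass both thresholds.

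The gate genes by cell class are a description, since they made the classes. Of the 90 type 17 cells, 80 had Il23r, 75 Blk, 75 Il1r1, 71 Cd163l1, 37 Sox13, 36 Il17a, 21 5830411N06Rik, 18 Ccr6 and 7 Il17f. Of the 24 type 1 cells, 21 had Klrd1, 15 Klrc1, 15 Xcl1, 13 Klre1, 12 Cd27, 11 Tbx21, 9 Gzma, 8 Eomes, 6 Gzmb and 2 Ifng. Il23r, Blk, Il1r1 and Cd163l1 were read in most type 17 cells, and the other genes given here in fewer than 50% of them.

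Genes outside both gates followed the same division, again without a test because all genes come from the cells that were divided. Serpinb1a, a protease inhibitor, was found in 70 of 90 type 17 cells and 0 of 24 type 1 cells. Zbtb16, which encodes the innate-like lymphocyte factor PLZF, was found in 76 and 3. Capg, an actin-capping protein, was found in 81 and 3, and Ramp1, a subunit of the receptor for the neuropeptide CGRP, in 72 and 3. Actn2 (72 and 1), Adam12 (60 and 0) and Abi3bp (51 and 0), genes better known from muscle and matrix, also lay with the type 17 cells. The chemokine gene Ccl5 was found in 22 of 24 type 1 cells and 2 of 90 type 17 cells. The cytotoxic granule gene Nkg7 was found in 23 and 1, and the surface gene Ly6c2 in 20 and 0. Lck, a kinase of T cell receptor signalling, was found in 21 and 4.

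The receptor segments lay with the classes too. Trdv4 was read in 61 of 90 type 17 cells and 1 of 24 type 1 cells, and Tcrg-V6 in 38 and 0. Across all members Trdv4 was read in 13 of 22, 15 of 30 and 35 of 70 cells, and Tcrg-V6 in 8, 5 and 26. Of the 39 cells with Tcrg-V6, 37 also had Trdv4, the pair printed above. Tcrg-V4 was read in 5 cells, Tcrg-V1 in 13 and Trgv2 in 56. In these libraries, which read the 3′ end of an RNA, a missing segment is not an absent one: 83 of 122 cells had any gamma segment and 71 any delta segment.

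The type 17 cells divided further by the scavenger receptor they carried. Cd163l1 alone was read in 70 members (16 of 22, 14 of 30 and 40 of 70), 5830411N06Rik alone in 20 (2, 8 and 10), both in 4, all at D7, and neither in 28. Trdv4 was found in 61 of the 70 cells with Cd163l1 alone and in 1 of the 20 with 5830411N06Rik alone. This held in each library, with 13 of 16, 13 of 14 and 35 of 40 Cd163l1 cells against 0 of 2, 1 of 8 and 0 of 10. Tcrg-V6 was found in 39 of 70 and 0 of 20, and Clnk, an adaptor of immunoreceptor signalling, in 54 of 70 and 3 of 20. The median depths of these cells were 6510.5 and 5948 UMIs.

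Effector genes were read in both scavenger receptor classes. Il17a was read in 27 of 70 cells with Cd163l1 alone and 7 of 20 with 5830411N06Rik alone, Il23r in 64 and 16, Itgae in 20 and 8, and Areg in 13 and 1. The genes that stood highest in the 5830411N06Rik cells were fibroblast collagens: Col3a1 had 1298 UMIs in 8 of those 20 cells against 45 in 17 of 70, and Col1a1 1031 in 6 against 41 in 10. Most of these UMIs lay in few cells. Single D7 members held 547, 1069 and 703 UMIs of a 6-gene set with both collagens, at depths of 23023, 28979 and 16451 UMIs. The part of these transcripts in the difference between the classes was not tested. The last 600 bases of the 2 scavenger receptor transcripts were identical at 63.2% of aligned bases. The genes are neighbours on chromosome 7, Cd163l1 at chr7:140218267-140231145 and 5830411N06Rik at chr7:140247284-140300736, both on the plus strand. The level of 5830411N06Rik was 26.1 CPM in Sham, 156 in D2 and 159 in D7, with 5, 39 and 72 UMIs, or 5.97 times Sham at D2 (2.35 to 19.4) and 6.09 times at D7 (2.49 to 19.3). Cd163l1 stood at 962, 740 and 934 CPM, so the other scavenger receptor did not stand above Sham.

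**Figure D3:**
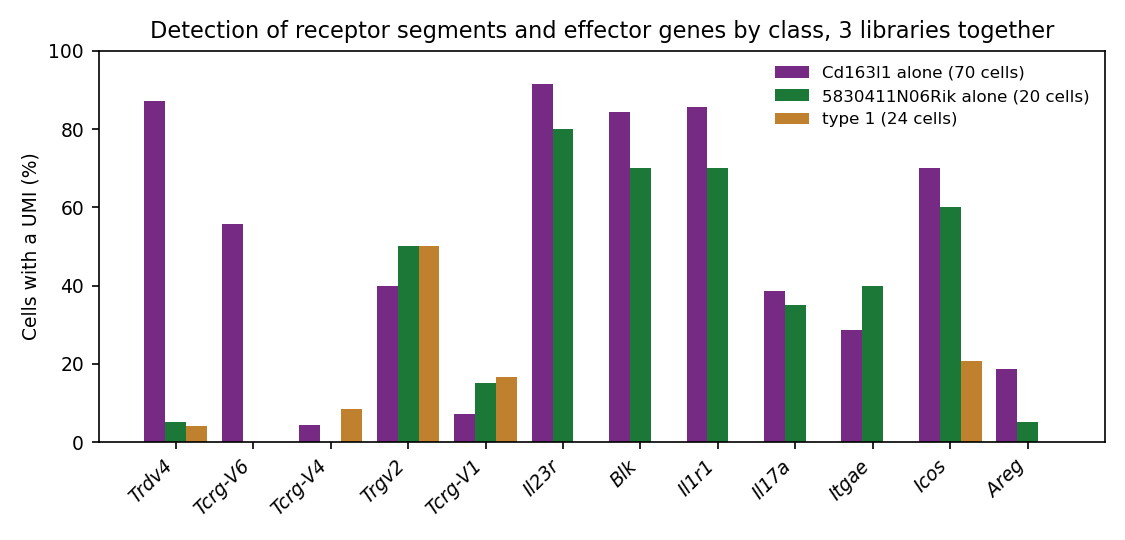
Share of cells (%) with a UMI of each variable segment or effector gene, for gamma delta T cells with Cd163l1 alone (70 cells), with 5830411N06Rik alone (20 cells) and of the type 1 class (24 cells), all libraries together. Trdv4 and Tcrg-V6 are read almost only with Cd163l1, while Il23r, Il17a and Itgae are read with either scavenger receptor.

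Beside CD4 T cells of the same libraries, the 8 genes that stood highest in the members in all 3 libraries, leaving out the genes of the selection, were Cd163l1, Trdv4, Tcrg-C1, Blk, the cadherin Cdh10, Clnk, Il23r and Zbtb16. The log2 ratios of (CPM + 1) for Cd163l1 were 9.91, 9.53 and 8.72, and those of Zbtb16, the lowest of the 8, were 4.80, 5.51 and 4.82. Clnk was as high in natural killer cells, at 293, 391 and 247 CPM, against 188, 256 and 305 CPM in the members. Cdh10 had no UMI in the CD4 T, CD8 T or natural killer cells. It stood at 152, 180 and 113 CPM in the members, in 8, 10 and 20 cells.

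The question for the 3 libraries was which genes differ between the members of Sham, D2 and D7. Levels are CPM over the summed members of a library. A gene counted as apart when the ratio of (CPM + 1) was at least 2 and the higher library had at least 20 UMIs in at least 10% of its members. The 3 comparisons share libraries and are not independent. Of 2553 genes measured for D2 over Sham, 11.8% (301) were higher in D2 and 4.47% (114) lower. Of 3304 for D7 over Sham, 10.6% (349) were higher and 2.94% (97) lower. Of 3602 for D7 over D2, 6.83% (246) were higher and 4.94% (178) lower. The medians over these genes were 0.20, 0.24 and 0.08 on the log2 scale.

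Those splits moved with the floor on UMIs and with single cells. The floor of 20 UMIs is 104.5 CPM in Sham, 80.0 in D2 and 44.2 in D7, so more genes could count as higher where the members' sum was larger. With a floor of 120 CPM in the higher library, 157 of 1797 genes were higher (8.74%) and 90 lower (5.01%) for D2 over Sham. For D7 over Sham, 85 of 1731 were higher (4.91%) and 78 lower (4.51%). For D7 over D2, 52 of 1755 were higher (2.96%) and 102 lower (5.81%). With the member that had the most UMIs of each gene left out of the higher library, 2095, 3143 and 3305 genes were measured. Of these, 121 were higher and 22 lower (5.78% and 1.05%), 209 and 12 (6.65% and 0.38%), and 127 and 55 (3.84% and 1.66%). Among the genes first counted were 114 and 21, 188 and 11, and 119 and 54 of them.

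Il17a, the gene of the cytokine IL-17A, stood highest at D7. Its UMIs lay in 4 of the 22 members of Sham, 5 of the 30 of D2 and 28 of the 70 of D7, with Il17a at 62.7, 48.0 and 170 CPM. The D7 level was 2.71 times that of Sham (1.47 to 5.48) and 3.54 times that of D2 (1.92 to 7.16), and the intervals of the Sham and D2 levels overlap. The share of cells with Il17a after thinning to 2000 UMIs was 9.09% of 22 (1.12 to 29.2), 6.67% of 30 (0.818 to 22.1) and 25.4% of 67 (15.5 to 37.5). The D7 interval there overlaps those of Sham and of D2. CD4 T cells had Il17a at 0, 0 and 2.4 CPM. Within type 17 cells alone the level was 80.8, 78.1 and 223 CPM. Il17f was read in 1, 1 and 5 cells, and Il22 in 0.

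Of the 19 cytokine receptor genes measured for D7 over Sham, 3 were at least 1.5-fold higher and 3 lower, with a median of -0.24. Over all genes measured, 28.4% were higher and 21.5% lower, with a median of 0.08. Il23r was read in 17 of 22, 20 of 30 and 46 of 70 cells at 674, 556 and 559 CPM, a ratio of 0.829 for D7 over Sham (0.668 to 1.03). Il18r1, a subunit of the IL-18 receptor, stood at 502, 500 and 493 CPM, and Il7r, the receptor of the survival cytokine IL-7, at 910, 852 and 877 CPM. Il1r1 stood at 439, 324 and 532 CPM. Of the 31 type 17 genes measured for D7 over D2, 7 were at least 1.5-fold higher and 3 lower, with a median of 0.24. Over all 9642 genes measured in that comparison, 23.6% were higher and 21.5% lower, with a median of -0.01.

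Itgae, which encodes the αE integrin CD103 that holds lymphocytes to E-cadherin, was listed at 0 UMIs in the 22 Sham cells. That allows up to 13.6% of cells with a UMI, taken as 3 divided by the number of cells. It does not limit how many cells express the gene. Itgae was read in 5 of 30 D2 cells at 32.0 CPM and in 25 of 70 D7 cells at 108 CPM. The D7 level was 6.90 times a floor of 3 counts over the Sham cells, a value that leaves out the counting error of D7. It was 3.38 times D2 (1.59 to 8.27). Of the 30 cells with Itgae, 29 were type 17 and 0 type 1. After thinning it was read in 0 of 22, 2 of 30 and 11 of 67. CD8 T cells had Itgae at 19.4, 66.5 and 50.9 CPM, so its level was also lowest in Sham among those.

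Icos, an inducible costimulatory receptor, was read in 9 of 22, 16 of 30 and 46 of 70 cells at 157, 204 and 402 CPM. D7 stood at 2.56 times Sham (1.74 to 3.91) and 1.97 times D2 (1.44 to 2.74). In CD4 T cells it was 232, 244 and 273 CPM. Among the members it lay with the type 17 cells, in 63 of 90, and in 5 of 24 type 1 cells. After thinning, 36.4%, 26.7% and 41.8% of the cells had it, with overlapping intervals.

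Areg, which encodes the epidermal growth factor receptor ligand amphiregulin, was read in 1, 1 and 13 cells at 10.5, 4.0 and 86.2 CPM. The D7 ratio was 8.24 over Sham (2.13 to 70.4) and 21.5 over D2 (3.65 to 872). Of the 15 cells with Areg, 10 also had Il17a. CD4 T cells also stood highest at D7, with 17.4, 17.3 and 89.0 CPM of Areg. Irf4, an activation-induced transcription factor, was read in 1, 2 and 17 cells at 10.5, 8.0 and 66.3 CPM, or 6.34 times Sham at D7 (1.61 to 54.7). In CD4 T cells Irf4 was 36.7, 19.5 and 14.6 CPM, lowest at D7.

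Further genes were high at D7. Kcnmb4, a potassium channel subunit, was read in 1, 4 and 23 cells at 5.23, 16.0 and 68.5 CPM. Capg stood at 220, 272 and 468 CPM, and Rgs1, a brake on chemokine receptor signalling, at 355, 456 and 727 CPM. D7 was 2.13 times Sham for Capg (1.53 to 3.05) and 2.04 times for Rgs1 (1.57 to 2.70). Faim (0, 8 and 21 UMIs), Fam169b (0, 16 and 20), Spopl (1, 16 and 27) and Nmrk1 (1, 12 and 27) were also among the 8 highest over Sham. Each of these had 27 UMIs or fewer in any library. Other genes among the highest of D7 over D2 were low at D2. Zbtb7c, Ttc39c and Zfp703 had 6, 7 and 6 UMIs in Sham, 0 each in D2 and 25, 22 and 20 at D7. Cpne8, Adam8 and Txndc5 had 5, 8 and 3 UMIs in Sham, 1 each in D2 and 26, 20 and 20 at D7. At D7 Adam8 stood at 44.2 CPM, against 41.8 CPM in Sham.

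Genes high at both times after injury form the next group. Bcl2a1a, a survival gene of the BCL2 family, was read in 1 of 22, 12 of 30 and 25 of 70 cells at 5.23, 92.0 and 141 CPM, or 27.0 times Sham at D7 (4.68 to 1085). Bcl2a1a has near-identical copies in the mouse genome, so its count is uncertain. Cxcr4, the receptor for the chemokine CXCL12, was read in 6, 20 and 33 cells at 41.8, 168 and 172 CPM. Its ratios to Sham were 4.02 at D2 (1.86 to 9.91) and 4.12 at D7 (1.99 to 9.88). In CD4 T cells Cxcr4 was 153, 80.0 and 95.1 CPM. Themis, a thymocyte signalling gene, was read in 1, 5 and 8 cells.

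The list of naive and circulating T cell genes stood higher after injury. For D2 over Sham, 8 of the 9 genes measured were at least 1.5-fold higher and 0 lower. Their median log2 ratio was 1.39. For D7 over Sham it was 6 and 0, with 1.33. Over all 8376 genes measured for D2 over Sham 27.1% were higher and 21.9% lower, with a median of 0.10, and for D7 over Sham, of 9532 genes, 28.4% and 21.5%, with 0.08. Without the member with the most UMIs of each gene in the higher library the medians of the list were 0.97 and 0.92.

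Lef1, a transcription factor of naive T cells, was read in 4, 13 and 23 cells at 31.4, 348 and 122 CPM, or 11.1 times Sham at D2 (4.90 to 31.1). Satb1, a chromatin organiser of thymocytes, was read in 11, 21 and 44 cells at 183, 444 and 462 CPM, or 2.43 times Sham at D2 (1.65 to 3.66). S1pr1, the receptor for exit from tissue, stood at 31.4, 84.0 and 108 CPM, and Tcf7 at 105, 168 and 128 CPM. The 2 classes differed. Type 17 cells had Lef1 at 26.9, 182 and 55.8 CPM (4, 28 and 19 UMIs). Type 1 cells had it at 46.8, 633 and 183 CPM (2, 58 and 13 UMIs). Satb1 stood at 175, 247 and 259 CPM in type 17 cells (26, 38 and 88 UMIs). In type 1 cells it was 210, 633 and 1252 CPM (9, 58 and 89 UMIs). Tcf7 and Klf2, of the same list, stood below Sham in type 17 cells, at 121, 104 and 82.3 CPM and 209, 104 and 135 CPM. In type 1 cells they stood above it, at 46.8, 262 and 169 CPM and 93.5, 448 and 352 CPM. Sham had only 4 type 1 cells, and a rise within a class was not tested. CD4 T cells had Satb1 at 448, 2034 and 1397 CPM, so its level also stood above Sham there.

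Genes higher in Sham were fewer at the floor of 20 UMIs. With the floor of 120 CPM the counts were closer for D7 over Sham, at 85 higher and 78 lower. For D2 over Sham they were 157 and 90. Tnfsf11, which encodes RANKL, was read in 13 of 22, 7 of 30 and 12 of 70 cells at 293, 60 and 113 CPM, so Sham stood at 4.88 times D2 (2.72 to 9.29) and 2.60 times D7 (1.75 to 3.87). Emp1, an epithelial membrane protein gene, was read in 10, 2 and 16 cells, at 120, 8.0 and 95 CPM. Hspa8, a constitutive chaperone, stood at 1490, 972 and 588 CPM, or 2.54 times D7 in Sham (2.14 to 3.01). It belongs to the list of genes induced by tissue dissociation, of which D2 had 9 of 16 at least 1.5-fold below Sham and 1 above (median -0.70), and D7 had 8 below and 3 above (median -0.59). Over all genes measured, D2 had 21.9% below and 27.1% above, and D7 21.5% and 28.4%. CD4 T cells had Hspa8 at 1302, 947 and 805 CPM. The part of cell handling in these differences was not tested.

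Ifngr1, a subunit of the interferon gamma receptor, stood at 732, 956 and 572 CPM. Type 1 genes were lower at D7 than in Sham, with 12 of 19 measured at least 1.5-fold lower, 2 higher and a median of -0.93. Over all genes measured, 21.5% were lower and 28.4% higher. But the type 1 median was 0.06 without the member with the most UMIs of each gene in the higher library. Ccl5 shows this: of its 556 Sham UMIs, 308 came from 1 cell. Cell cycle genes behaved alike, with 11 of 15 lower for D2 over Sham (median -2.02) and 12 of 15 for D7 over Sham (-1.41), against 21.9% and 21.5% of all genes measured. Their medians were 0.49 and 0.31 without the member with the most UMIs of each gene. Of the Sham UMIs of Top2a 32 of 35, and of Mki67 24 of 26, came from 1 cell, and both genes mark dividing cells.

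**Figure D4:**
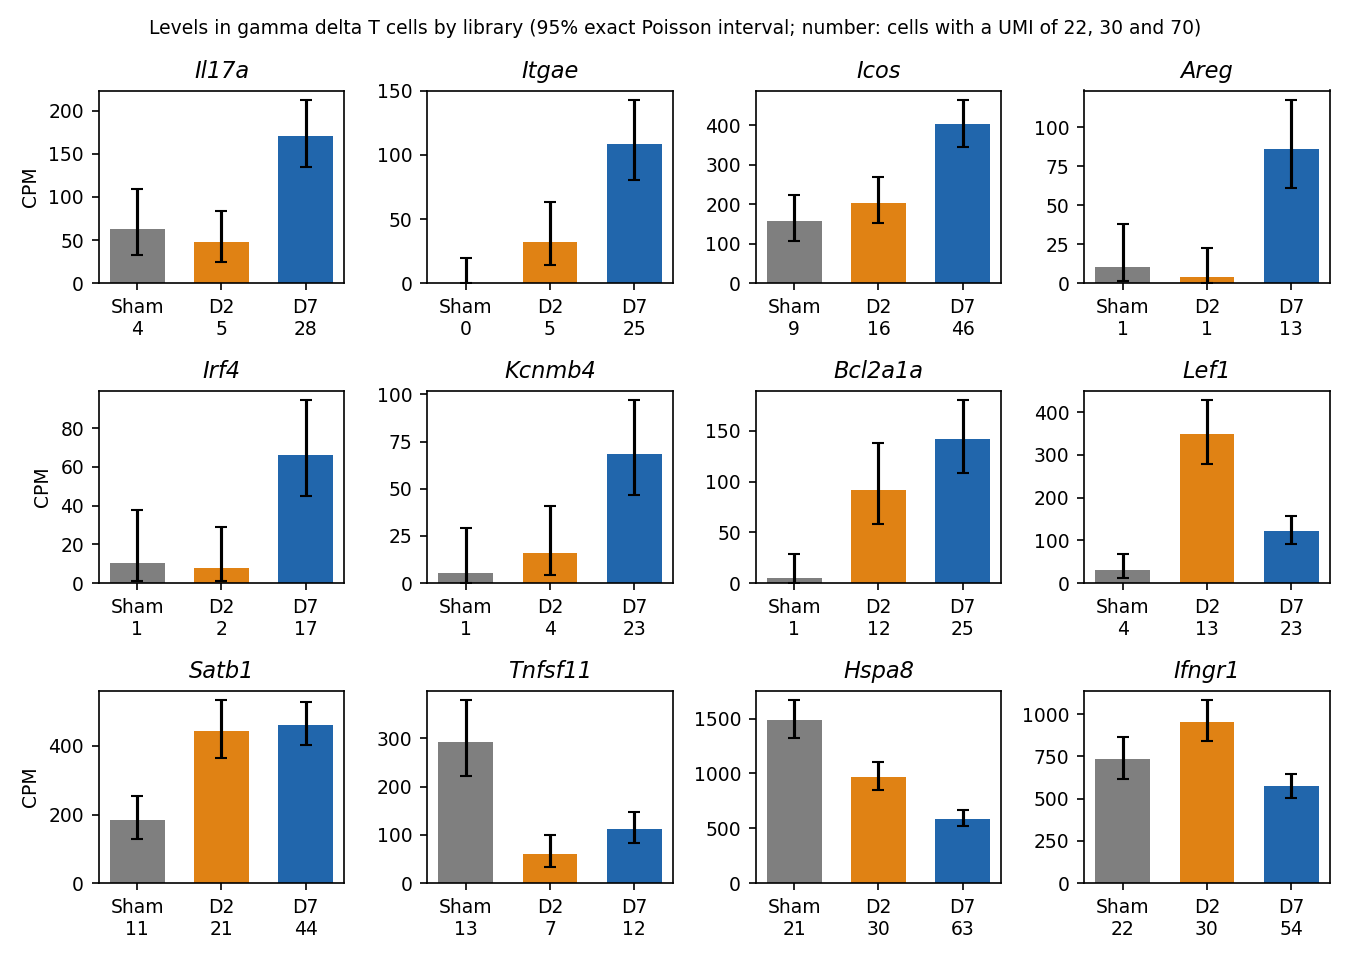
Level (CPM) of 12 genes in the gamma delta T cells of the Sham, D2 and D7 libraries, with exact 95% Poisson intervals as bars and, under each library, the number of cells with a UMI of 22, 30 and 70. Il17a, Itgae, Icos, Areg, Irf4 and Kcnmb4 stand highest at D7, Lef1 at D2, and Tnfsf11 and Hspa8 in Sham.

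Several of the genes with the most extreme ratios came mostly from 1 cell or from few. Of 108 Fabp4 UMIs in Sham, 103 were in 1 cell, and of 93 Igfbp7 UMIs 89; Fabp4 is a gene of fat and capillary endothelial cells. At D2, 30 of 32 UMIs of Dscam and 50 of 55 of Fabp5 were in 1 cell, and Cers6 had 32 of 64. Sfrp2, a fibroblast gene, had 156 UMIs in 7 cells at D7, of which 91 were in 1 cell. Aff3, Prkcb and Setbp1 stood at 352, 280 and 248 CPM in D2, against 36.6, 36.6 and 5.23 CPM in Sham and 126, 30.9 and 86.2 CPM in D7. Of the 62 Setbp1 UMIs at D2, 60 lay in type 1 cells, of which Sham had 4.

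Markers of other cells were found in the members and moved with the libraries. All 9 fibroblast markers were detected, at 847, 72.0 and 9285 CPM in sum, and 2 cells held 2998 of 4203 UMIs at D7. The neutrophil markers, 8 of 9 detected, stood at 31.4, 2796 and 37.6 CPM, with 582 of 699 UMIs at D2 in 2 cells and Retnlg at 0. The endothelial markers, all 7 detected, had 202, 39 and 85 UMIs, 166 of the Sham ones in 1 cell. The dendritic markers, 8 of 9 detected, had 487, 599 and 379 UMIs in 1 cell of each library. Of the 10 natural killer markers 8 were detected, with 104, 281 and 135 UMIs, and Klra8 and Klra4 were at 0. Of the 13 macrophage and monocyte markers 11 were detected, at 450, 556 and 524 CPM, with Fcgr1 at 0 and Csf1r at 0 by the selection. The smooth muscle markers Myh11, Cnn1 and Rgs5 and the B cell markers Ms4a1, Ighd and Iglc2 were at 0. The part of these transcripts in the differences above was not tested. With the members that had 5 or more UMIs of 6 such genes left out, 3011 genes were measured for D7 over D2. Of these, 6.04% (182) were higher and 4.38% (132) lower.

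**Figure D5:**
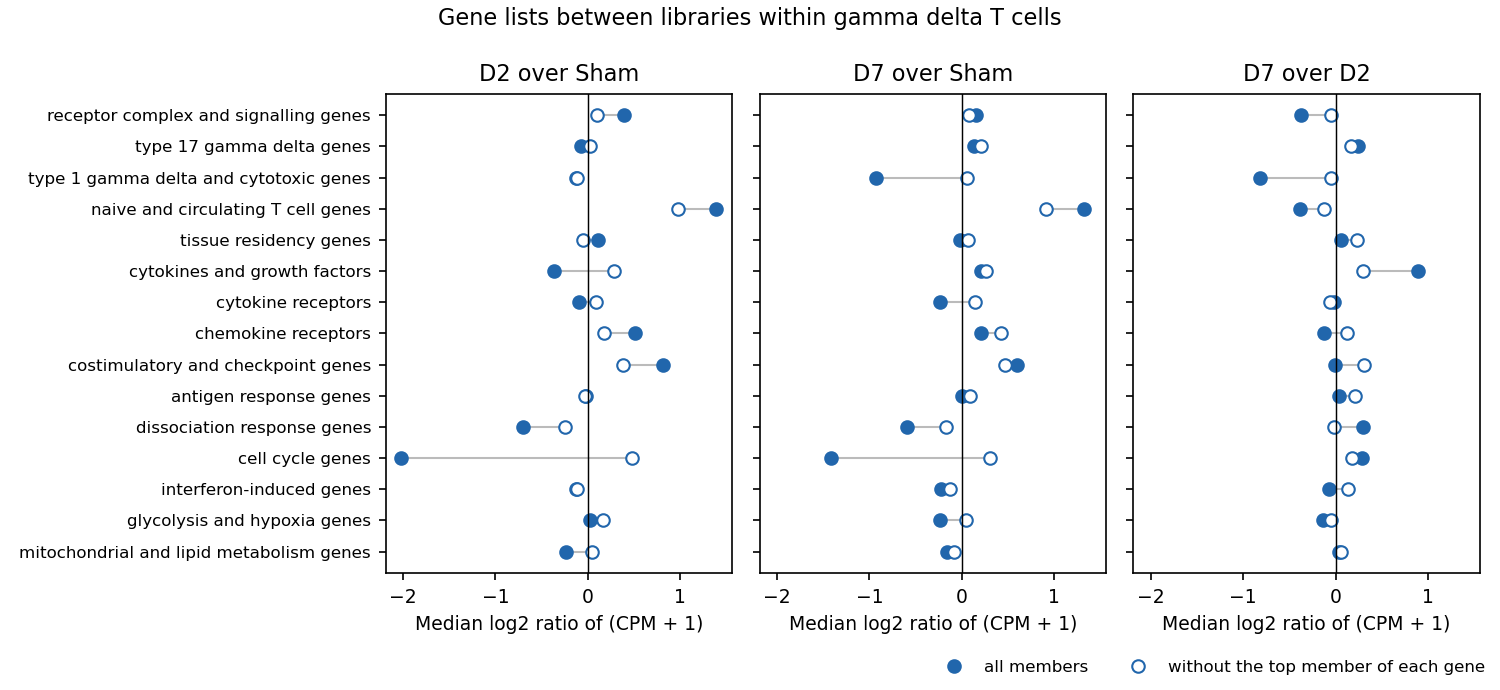
Median log2 ratio of (CPM + 1) of each gene list between libraries within gamma delta T cells, for D2 over Sham, D7 over Sham and D7 over D2; filled points use all members and open points leave out, for each gene, the member with the most UMIs in the higher library. The naive and circulating list keeps its sign, at 1.39 and 0.97 for D2 over Sham, and the cell cycle list changes it, from -2.02 to 0.49.

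The receptor of IL-33, the cytokine in the study's title, was looked for in these cells. Il1rl1, which encodes its ST2 chain, had 0 UMIs in all 122 members, which allows up to 2.46% of cells with a UMI and does not limit how many express the gene. By library, 0 of 22, 0 of 30 and 0 of 70 allow up to 13.6%, 10% and 4.29% of cells with a UMI. It was read in 899 of all 30135 cells and in 9 of 268 CD4 T cells. The list of group 2 innate lymphoid markers, which holds Il1rl1, Il5 and Il13, had 7 of 10 genes detected in the members, and these 3 were at 0. Il33 itself was read in 3 members, all at D7, and in 4163 cells overall.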

How the data were processed

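Femoral artery cells of 3 pools of 6 mice were sequenced with the 10x Genomics 3′ kit. The deposited values are raw UMI counts per gene and barcode; Cell Ranger 7.1.0 made the matrices per the file headers, while Cell Ranger 7.2.0, Seurat 5.0.1 and mm10 stand in the submitters' processing notes. The other columns of the deposited files hold gene and barcode names. Counts were read in Python 3.11.15 with SciPy 1.17.1, pandas 2.3.3 and scanpy 1.11.5. Barcodes with at least 300 genes and at most 15% mitochondrial UMIs were kept, and the selection rule was applied. Clopper-Pearson intervals were given for shares, exact Poisson intervals for levels and exact conditional binomial intervals for ratios. Ratios on a log2 scale add 1 CPM. Thinning drew 2000 UMIs per cell and dropped cells with fewer.

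Scrublet called 0 of 7451 cells as doublets in Sham, so it did not work there, 472 in D2 and 228 in D7; no doublets were removed. The genes named for each pair of libraries were the 8 highest and 6 lowest with 20 or more UMIs in 10% of the members, whose members' level was at least 0.5 of that of the whole library. This ranking skipped genes of mitochondria, ribosomes, haemoglobin and sex chromosomes, and predicted genes. Receptor genes, gate genes and up to 4 members of each list were named too. Capg, Irf4, S1pr1, Il22, the IL-33 genes and the genes outside the gates that are given by class were singled out after their values were seen. Some genes of the gates and lists are not reported here. The members and lists were chosen with earlier results of these data known. The counting script was tested on simulated data. Alternatives are given in the closing section.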

Additional observations from a re-analysis of the deposited data

How the results depend on the processing

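Alternatives kept most results. Among the shares 31 of 34 values, and among named genes 490 of 525, stayed within the interval of the main value. List medians have no interval, and 416 of 435 moved by less than 1.5-fold. Counts of genes apart moved more often, with 44 of 64 within 1.5-fold of the main count. A filter of 500 genes and 10% mitochondrial UMIs kept the same 22, 30 and 70 members, so its gene and list values could not move. With 1 gene enough for a gate, the type 17 share at D7 was 50%, with cells that had a gene of each gate counted as both. At D7, 55 of 70 cells had a type 17 gate gene, and 18 had exactly 1 type 1 gate gene. With Trac at 0, the D7 members were 0.428% of all cells and 6.61% of CD3-positive cells, and thinned to 2000 UMIs they were 0.443% of all cells. The type 1 share at D2 was 9.52% thinned.

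Counts of genes apart moved with the settings. Thinned, D7 over D2 gave 70 higher and 17 lower of 643 genes measured. These were 10.9% and 2.64%, against 6.83% and 4.94% with all UMIs. Within type 17 members 94 of 2583 were lower for that pair (3.64%). A pseudocount of 10 CPM gave 229 of 3304 higher for D7 over Sham (6.93%). A floor of 10 UMIs gave 656 higher and 332 lower of 4656 for D2 over Sham (14.1% and 7.13%). For D7 over Sham it gave 779 and 268 of 5468 (14.2% and 4.90%). For D7 over D2 it gave 533 and 414 of 5854 (9.10% and 7.07%). A floor of 120 CPM, chosen after seeing the data, gave 157 of 1797 higher for D2 over Sham and 85 of 1731 for D7 over Sham. For D7 over D2 it gave 52 higher and 102 lower of 1755. Leaving out the top member of each gene, also chosen after seeing the data, gave 121 and 22 of 2095, 209 and 12 of 3143, and 127 and 55 of 3305.

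Directions turned in 10 places. For D7 over D2 the median of the type 1 genes, negative in all members, was 0.84 thinned and 1.31 within type 17 members, and thinned log2 ratios were -0.13 for Adam8, 4.51 for Fabp5 and 0.45 for Prkcb. Without the top member, the cell cycle median was 0.49 for D2 over Sham and 0.31 for D7 over Sham, the type 1 median for D7 over Sham was 0.058, and Mki67 and Top2a for D7 over Sham were both 0.32. The cause was not tested, but the last 5 leave out 1 cell for each gene by construction.

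Where fewer than 20 Sham cells were left (18 with a gamma constant gene required, 17 thinned, 19 without other-cell markers, 18 type 17 alone), no gene comparison with Sham was made. Scrublet gave no Sham value. No paired analysis was possible because each group is 1 library. With 22 to 70 cells a library, a gene in a few cells cannot be told from its absence.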
